A study of Phyllostachys violascens with 6 samples.

Results

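A set of 150 unigenes was highest in the libraries numbered 1 and lowest in the libraries numbered 3, in the yellow culm and in the green sulcus of the bamboo *Phyllostachys violascens* cv. Viridisulcata. Its members were chosen by their levels out of 63776 unigenes. RNA came from the longest internodes of wild type plants of this cultivar, 3 libraries of the yellow culm and 3 of the green sulcus, described as biological replicates. The plants were of like height, were sampled mid-stem on a single day in April, and the tissue was cleaned with ethanol and frozen. No other treatment and no age is given. The study numbers its qRT-PCR repeats by bamboo, but for the sequenced libraries the sources used here do not say whether the same number marks the same plant. The numbers 1 to 3 are names with no order of their own, so the pattern describes which libraries stood high and which low. A p-value given here measures only the spread between these libraries.

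The culm is the woody stem of a bamboo, built of hollow internodes between nodes. The sulcus is the groove that runs along an internode above a branch bud, and in this cultivar it stays green while the rest of the culm surface is yellow. The green color of a stem comes from chlorophyll in the chloroplasts of its outer cells, and the flavonoids and lignin of such tissues are made from phenylalanine through the phenylpropanoid pathway. A unigene is a group of assembled contigs that share reads, and it stands for a gene without proving that it is one. In bulk tissue, fewer cells of a type and less RNA per cell cannot be told apart.

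The total of the estimated counts lay between 18875469 and 22505338 in the 3 culm libraries and between 16405396 and 19434666 in the 3 sulcus libraries. In a library, between 10.7% and 12.5% of the values were not whole numbers, as estimated counts need not be. As a check of the tissue labels, each of 12 annotated photosynthesis unigenes had a fitted log2 fold change, culm minus sulcus, below 0 (median −1.89). At an adjusted p under 0.05 edgeR called 0 of them without the replicate number as a block and 5 lower in the culm with it. The study listed these 12 from the same libraries, so they are not independent evidence. Culm and sulcus libraries with the same number departed from the mean of their tissue together, with correlations over 31936 unigenes of 0.713 for number 1, 0.620 for number 2 and 0.798 for number 3. For libraries with other numbers the correlations lay between −0.632 and −0.0750. Departures from the mean of 3 libraries sum to 0, so positive values for the same number bring negative ones for other numbers with them. The large differences between numbered libraries described here are therefore found in both tissues, and the labels give no reason for them.

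The members were selected on CPM, the count divided by the total of the library and multiplied by 1e+06. A mean CPM of 10 or more over the 6 libraries was reached by 13883 unigenes. Of these, 1426 (10.3%) stood in the order 1, 2, 3 from high to low in both tissues, and 1311 of them also had culm and sulcus values within 2-fold of each other in each same-numbered pair. The score of a unigene was the smaller of its log2 ratios of library 1 over library 3 in the culm and in the sulcus, with 0.5 CPM added to each value, and the 150 highest scores were taken. All values of order and size below therefore chose the members and are given as a description. The opposite order, highest in libraries 3, was held by 1326 unigenes (9.55%) in both tissues. The other orders were shared by 635 to 1335 unigenes.

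The scores lay between 2.56 and 7.26, with a median of 3.76 and quartiles of 3.09 and 4.53. The last unigene taken had 91.4, 16.8 and 15.1 CPM in culm libraries 1 to 3 and 68.2, 18.8 and 9.62 CPM in sulcus libraries 1 to 3. The first left out had 111, 39.9 and 15.5 CPM in the culm and 94.0, 33.8 and 15.6 CPM in the sulcus. Both scores round to 2.56, so the limit of 150 members falls within a continuous range of scores and not at a gap.

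None of the 150 members is among the 424 unigenes of the study's annotated table or the shorter annotated lists described below, so no member is given a gene name or a function. These 424 are unigenes that the study selected for a difference between culm and sulcus, which the limit on the pair ratio keeps largely out of the members, and they made up only 0.375% of the 13883 unigenes of the required abundance. Nothing about the members follows from the 0. The members are described by their levels, by their rank in the score and, for 4 of them, by their identifiers. Of the 150, 149 carry the identifier prefix Cluster-4806, as did 98.2% of the 13883 unigenes of that abundance. A value that was not whole occurred in some library for 84 members (56%), against 57.8% of the 13883. Both shares were close to those of the other unigenes.

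Together the members took 2.58% of all counts in culm 1, 0.414% in culm 2 and 0.154% in culm 3. In the sulcus they took 2.13% in library 1, 0.396% in library 2 and 0.145% in library 3. The summed level of library 1 was 6.22 times that of library 2 in the culm and 5.37 times in the sulcus. Between libraries 1 and 3 the ratio of the sums was 16.7 in the culm and 14.7 in the sulcus. The 10 most abundant members supplied 25.2% of the sum in culm 1 and 27.2% in sulcus 1, so the totals did not rest on a few unigenes.

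The median member had 109, 14.9 and 5.33 CPM in culm libraries 1, 2 and 3, and 81.7, 14.4 and 5.59 CPM in sulcus libraries 1, 2 and 3. In libraries 1 the members ranged between 22.2 and 1236 CPM in the culm and between 15.1 and 989 CPM in the sulcus. In libraries 3 they ranged between 0.133 and 73.5 CPM in the culm and between 0 and 73.8 CPM in the sulcus. The plot of levels by library shows the wide range of levels in each library and the like medians of both tissues. The abundance of the members was ordinary, with a median mean CPM of 38.6 against 30.9 for the 13883 unigenes, and score and mean level were only weakly related (Spearman's rho 0.09 across the 150 members).

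**Figure D1:**
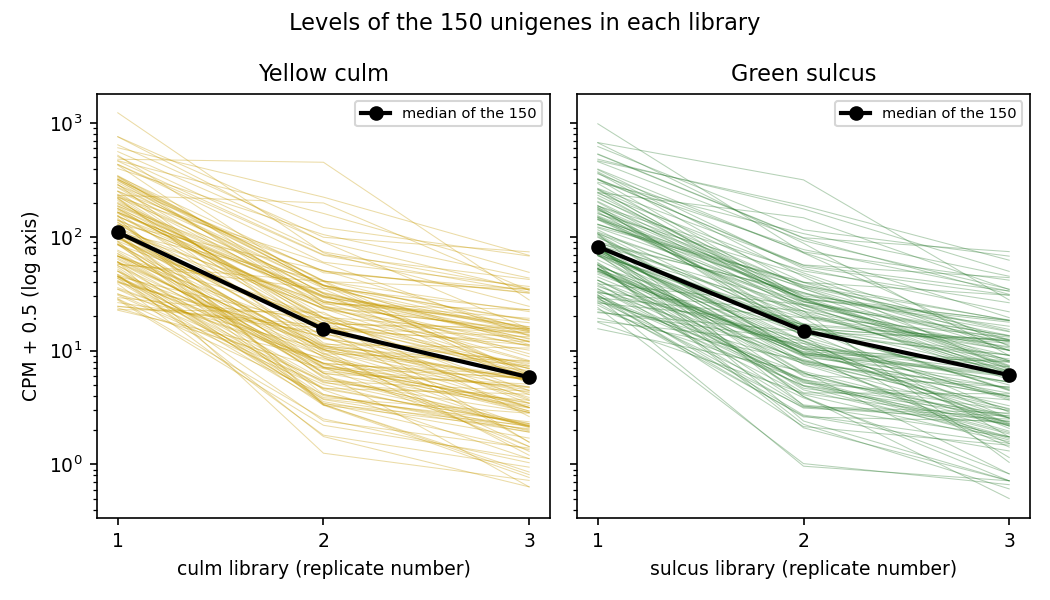
Levels of the 150 members in each library, as CPM + 0.5 on a log axis, for the yellow culm (left) and the green sulcus (right), with 1 thin line for each unigene and black points for the median. The medians are 109, 14.9 and 5.33 CPM in culm libraries 1 to 3 and 81.7, 14.4 and 5.59 CPM in sulcus libraries 1 to 3; the replicate numbers carry no order, and the lines only join the values of a unigene.

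Member by member, library 1 was higher than library 3 by a median of 17.4-fold in the culm, with a range between 5.89-fold and 180-fold. In the sulcus the median was 14.1-fold, with a range between 5.90-fold and 164-fold. The ratio was 8 or more in both tissues for 118 members, 16 or more for 64 and 32 or more for 23. It was larger in the culm than in the sulcus for 100 of the 150. Across the 13883 unigenes the same log2 ratio had a median of −0.031 in the culm and 0.014 in the sulcus, so libraries 1 and 3 were on the whole at the same scale.

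The log2 ratios of library 1 over library 3 in the culm and in the sulcus ran together. Pearson's r was 0.91 and Spearman's rho 0.89 over the 150 members, and 0.90 and 0.79 over the 13883 unigenes. These are correlations across unigenes of the same 4 libraries, and the choice of members itself used both ratios. In the plot of both ratios the members lie at the upper right end of a cloud that is stretched along the diagonal in both directions.

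**Figure D2:**
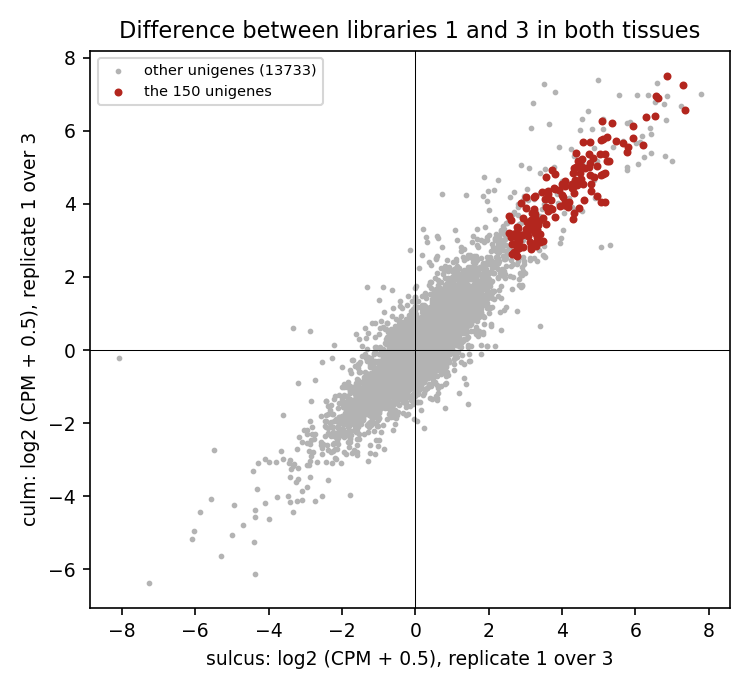
Log2 ratio of library 1 over library 3, with 0.5 CPM added to each value, in the culm (vertical axis) and in the sulcus (horizontal axis) for the 150 members (red) and the other 13733 unigenes with a mean CPM of 10 or more (grey). The members have log2 ratios of 2.56 or more in both tissues, as the choice requires, and the cloud of the other unigenes also extends in the opposite direction.

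Cluster-4806.20544 had the highest score. It had 219, 9.08 and 0.933 CPM in culm libraries 1, 2 and 3 and 182, 12.9 and 0.648 CPM in sulcus libraries 1, 2 and 3. These values rest on 4140, 181 and 21 counts in the culm and on 2981, 250 and 12 counts in the sulcus. With 0.5 CPM added, library 1 was 153-fold above library 3 in the culm and 159-fold in the sulcus. Its levels in culm and sulcus were close to each other in every pair, as the rule requires of all members. Between the numbered libraries they spanned a range of more than 100-fold, which is what ranked it first.

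Cluster-4806.14602 had the second highest score. It had 146, 2.86 and 0.311 CPM in culm libraries 1 to 3 and 83.0, 1.90 and 0.216 CPM in sulcus libraries 1 to 3. The ratio of library 1 over library 3 was 180 in the culm and 117 in the sulcus. Most of this difference lay between libraries 1 and 2, and the values of libraries 3 rest on 7 counts in the culm and 4 in the sulcus. Its culm library was the higher one in all 3 pairs.

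The most abundant member, at rank 10 of the score, had 1236, 72.0 and 24.0 CPM in the culm and 989, 72.3 and 19.0 CPM in the sulcus, in the order of the library numbers. Its ratio of library 1 over library 3 was 50.4 in the culm and 50.7 in the sulcus. The next most abundant member, at rank 57, had 482, 453 and 27.4 CPM in culm libraries 1 to 3 and 676, 317 and 27.4 CPM in sulcus libraries 1 to 3. In the first of these, libraries 2 and 3 were both low, whereas in the second, library 2 stood close to library 1 and library 3 alone was low.

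The rule set the order of library 2 and, by its limit on the pair ratios, held its place in the culm near that in the sulcus. Within these limits its place varied among the members. The share of the log2 difference between libraries 1 and 3 that lay between libraries 1 and 2 had a median of 72.8% in the culm (between 2.16% and 97.4%) and 66.8% in the sulcus (between 10.6% and 99.2%). It was over 50% in both tissues for 124 members and under 50% in both for 15. For the other members it was over 50% in 1 tissue, in the culm only for 4 and in the sulcus only for 7. The shares in culm and sulcus were related across the 150 members, with a Pearson's r of 0.79 and a Spearman's rho of 0.72. The limit on the pair ratios brings such a relation with it, so nothing is read from its size or from the counts in both tissues.

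For the 124 members, library 1 exceeded library 2 by a median of 8.90-fold in the culm and 6.83-fold in the sulcus, and library 2 exceeded library 3 by 2.05-fold in the culm and 2.19-fold in the sulcus. These unigenes were thus high mainly in culm 1 and sulcus 1. For the 15 members, library 1 exceeded library 2 by only 1.67-fold in the culm and 1.80-fold in the sulcus, and library 2 exceeded library 3 by 4.82-fold in the culm and 4.38-fold in the sulcus. These were low mainly in culm 3 and sulcus 3. They ranked between 56 and 149 in the score, with a median rank of 113, and none was among the first 50. Among the 1161 unigenes that met the other criteria but were not taken, the median share between libraries 1 and 2 was 55.6% in the culm and 46.2% in the sulcus, lower than in the members.

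**Figure D3:**
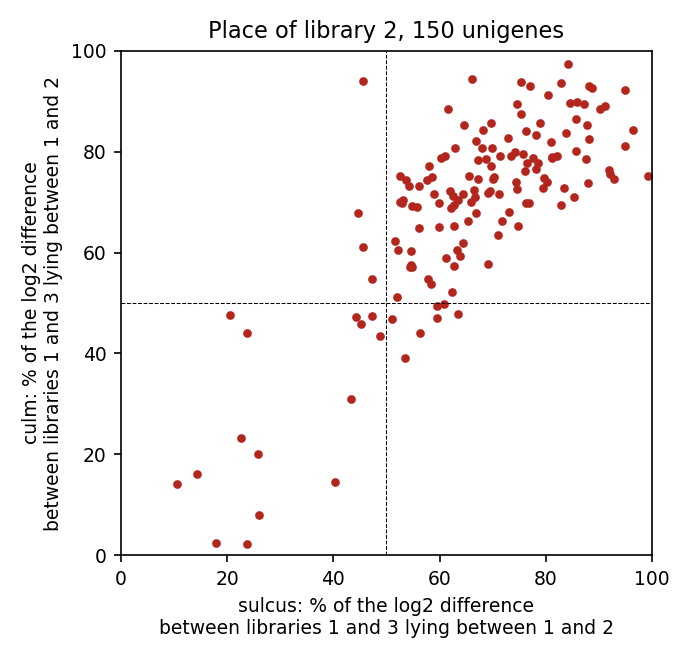
Percent of the log2 difference between libraries 1 and 3 that lies between libraries 1 and 2, in the culm (vertical axis) and in the sulcus (horizontal axis), with 1 point for each of the 150 members. The dashed lines mark 50%, and 124 members lie above both lines and 15 below both.

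Some members came near the lower end of what was counted in libraries 3. The median count was 2065 in culm 1, 297.5 in culm 2 and 120 in culm 3. In the sulcus it was 1340 in library 1, 280 in library 2 and 103.5 in library 3. Counts under 10 occurred for 6 members in culm 3, 9 in sulcus 3 and 1 in sulcus 2, and 11 members were under 1 CPM in both libraries 3.

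Most members thus had 10 counts or more in every library. A count of 0 occurred only in the member at rank 4, with 59.9, 5.87 and 0.133 CPM in culm libraries 1 to 3 and 81.3, 3.45 and 0 CPM in sulcus libraries 1 to 3. A count of 0 in sulcus 3 allows up to 3 counts, or 0.162 CPM, which makes sulcus 1 at least 501-fold higher than sulcus 3. This limit covers counting error only.

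Since the choice used both tissues, the pattern was also read in libraries that a choice had not used. When 150 unigenes were chosen with the 3 sulcus libraries alone, 126 of them (84%) stood in the same order in the culm, against 17.1% of the 13793 unigenes with a mean sulcus CPM of 10 or more. Their highest culm value was in culm 1 for 129 and their lowest in culm 3 for 147, and culm 1 exceeded culm 3 by a median of 26.5-fold. Of these 150, 95 are also members.

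When 150 unigenes were chosen with the 3 culm libraries alone, 138 (92%) stood in the same order in the sulcus, against 20.1% of the 13963 unigenes with a mean culm CPM of 10 or more. Their highest sulcus value was in sulcus 1 for 143 and their lowest in sulcus 3 for 145, with a median ratio of 20.3 between sulcus 1 and sulcus 3. Of these, 81 are also members. A unigene that differed strongly between numbered libraries of 1 tissue thus mostly differed in the same direction in the other tissue. What same-numbered libraries share is not given, so these counts are a description and no test was made.

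**Figure D4:**
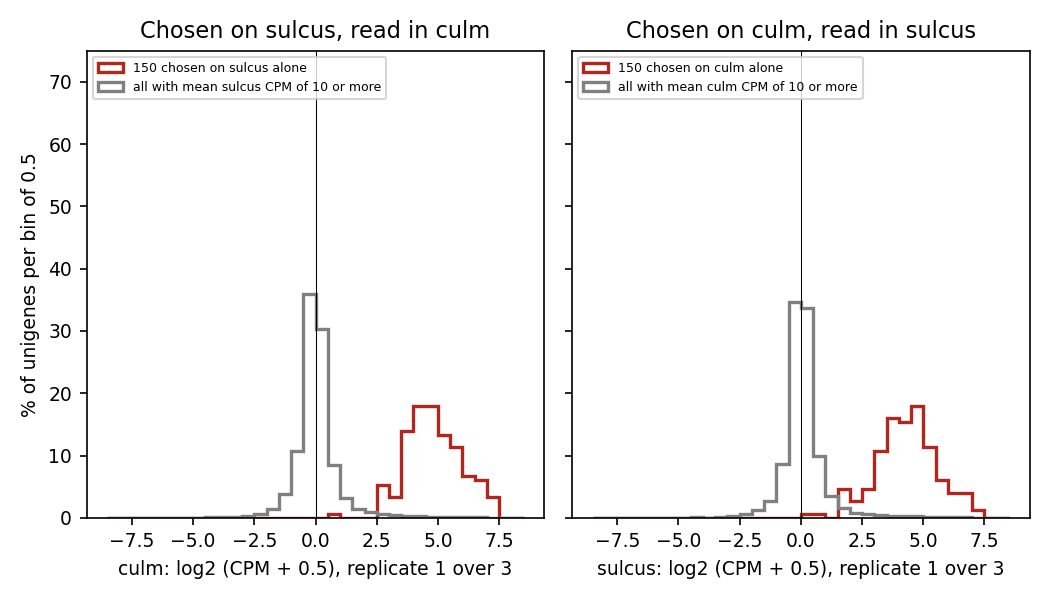
Log2 ratio of library 1 over library 3, with 0.5 CPM added, in the tissue that the choice did not use: the culm for 150 unigenes chosen on the sulcus (left) and the sulcus for 150 chosen on the culm (right), in red, with all unigenes of that abundance in grey, as percent of unigenes in each bin of 0.5. The chosen unigenes have median ratios of 26.5 in the culm and 20.3 in the sulcus, and the grey curves centre near a log2 ratio of 0.

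The study was designed to compare the 2 tissues, and for the members this was done with edgeR's quasi-likelihood test. Because the choice limited the ratio within each same-numbered pair to 2-fold, a large tissue difference could not occur in the members. All 150 passed the filter on low counts, and edgeR called 0 of them at an adjusted p under 0.05, as it did of all 31936 unigenes tested (0%). At an unadjusted p under 0.05 the count was 0 of the 150, against 1.38% of all tested. The spread that enters this test is the spread between the libraries 1, 2 and 3 of a tissue, which is what the members were selected on.

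The fitted log2 fold change, culm minus sulcus, had a median of 0.28 over the members and 0.0059 over all unigenes tested. It lay between −0.70 and 0.87 and was above 0 for 119 members. In no member was it larger than its own standard error, which was derived from the log2 fold change and the test statistic. This follows from the choice of the members, which required a large spread between libraries and a small ratio within pairs, and it says nothing about the tissues. Leaving out 1 library sets unlike numbered libraries against each other, so the median of members chosen by those numbers had to move. The median was −1.84 without culm 1 and 2.18 without sulcus 1. It was −0.081 without sulcus 2 and −0.21 without sulcus 3, against 0.65 without culm 2 and 0.79 without culm 3. These shifts follow from the choice of the members and do not test the sign. In fits that compare libraries within same-numbered pairs, the median stayed above 0 when 1 pair was left out. It lay between 0.045 without pair 1 and 0.20 without pair 2.

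With the replicate number as a block, each culm library is set against the sulcus library of the same number. In this fit edgeR called 2 members higher in the culm and 0 lower, against 0.157% of all unigenes tested. At an unadjusted p under 0.05, 40 members were higher and 2 lower in the culm, 42 of 150 in all, against 7.82% of all tested. These are unlike sets. The 31936 tested include many unigenes below the mean CPM of 10 required of the members. The rule also limited the pair ratios that this fit uses. The members' log2 fold changes had a median of 0.14, against 0.0053 over all, and 110 of 150 were above 0. The common biological coefficient of variation, edgeR's measure of the spread between libraries, was 0.146 with the block and 0.403 without it.

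The called pair, named here after their values were seen, were Cluster-4806.26613 at rank 9 and Cluster-4806.19671 at rank 40. Cluster-4806.26613 had 286, 31.3 and 4.62 CPM in culm libraries 1 to 3 and 175, 15.8 and 2.38 CPM in sulcus libraries 1 to 3. Cluster-4806.19671 had 151, 23.0 and 5.38 CPM in culm libraries 1 to 3 and 86.8, 11.7 and 3.30 CPM in sulcus libraries 1 to 3. Both were higher in the culm in 3 of 3 pairs, by less than 2-fold with 0.5 CPM added, as the rule requires, and the differences between numbered libraries were far larger than those between tissues. With the block, Cluster-4806.26613 had a log2 fold change of 0.87 and Cluster-4806.19671 one of 0.85, both at an adjusted p of 0.0432 from edgeR.

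The number called changed with the pairs used. Without replicate 1, edgeR with the block called 5 of 149 members tested, against 337 of all 32910 unigenes tested. Without replicate 2 or replicate 3 it called 0 members. Over all unigenes tested it called 5 of 32647 without replicate 2 and 104 of 32322 without replicate 3. DESeq2 with the block called 8 of 150 members, against 173 of all 31936 unigenes.

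The member with the largest fitted difference in the blocked fit, at rank 17, had 38.1, 1.30 and 0.444 CPM in culm libraries 1 to 3 and 23.4, 0.515 and 0.162 CPM in sulcus libraries 1 to 3. It had a log2 fold change of 0.88 with a derived standard error of 0.22, at an adjusted p of 0.259 from edgeR. The member with the smallest, at rank 52, had 55.4, 5.02 and 2.36 CPM in culm libraries 1 to 3 and 79.8, 7.51 and 3.46 CPM in sulcus libraries 1 to 3. Here the log2 fold change was −0.55, the standard error 0.12 and the adjusted p from edgeR 0.184. Neither passed the test, although the culm was the higher tissue in all 3 pairs at rank 17 and the lower one in all 3 pairs at rank 52.

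Pair by pair, the members leaned towards the culm mainly in pair 1. The culm was higher than the sulcus for 120 of 150 members in pair 1, for 76 in pair 2 and for 96 in pair 3. Over all 13883 unigenes of that abundance the culm was higher for 52.1% in pair 1, 48.9% in pair 2 and 60.8% in pair 3. The median log2 ratio of culm over sulcus in the members was 0.34 in pair 1, 0.0044 in pair 2 and 0.080 in pair 3. Culm 1 had a summed level of the members 1.21 times that of sulcus 1, against 1.04 times in pair 2 and 1.06 times in pair 3.

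The count in pair 1 changed little with another scaling. With TMM-scaled library sizes the culm was higher for 119 members in pair 1, for 86 in pair 2 and for 78 in pair 3. The culm was higher in all 3 pairs for 42 members (28%), against 19.4% of the 13883 unigenes, and lower in all 3 for 8 members (5.33%), against 12.9%. With TMM scaling the members' counts were 38 and 10, while the shares of the 13883 unigenes were taken only without it. Among the 1161 unigenes that met the other criteria but were not taken, the culm was higher for 68.4%, 60.6% and 65.7% in pairs 1, 2 and 3.

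**Figure D5:**
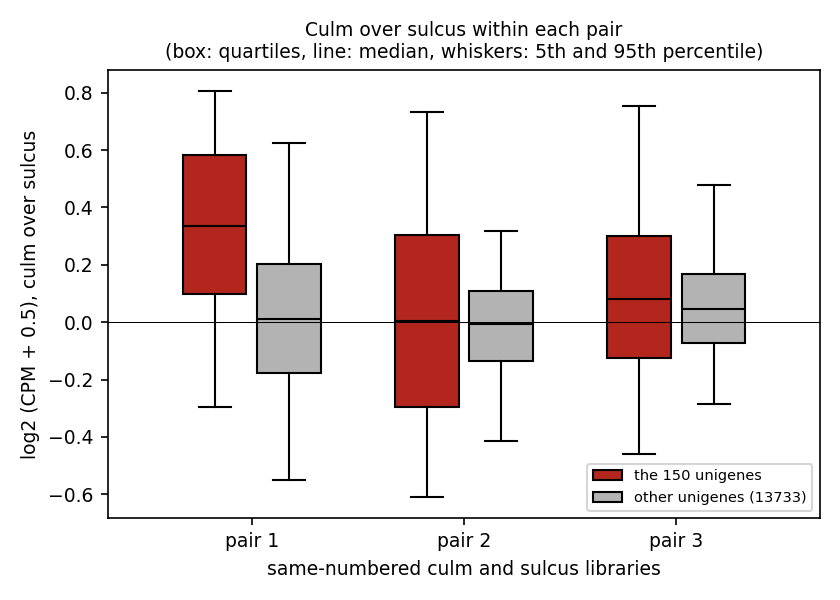
Log2 ratio of culm over sulcus, with 0.5 CPM added, within each same-numbered pair for the 150 members (red) and the other 13733 unigenes with a mean CPM of 10 or more (grey). Boxes span the quartiles, lines mark medians and whiskers the 5th and 95th percentiles; the members' medians are 0.34, 0.0044 and 0.080 in pairs 1, 2 and 3.

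Annotated unigenes were examined for the same order. The photosynthesis list and the annotated table of 424 hold unigenes selected for a tissue difference, few of which could be members, so nothing is read from the counts of 0 members below. The 12 photosynthesis unigenes encode photosystem, antenna and other chloroplast proteins that capture light, and 18 further unigenes encode enzymes of the flavonoid and phenylpropanoid pathway. None of either list was a member, and of the 8 photosynthesis and 14 pathway unigenes with a mean CPM of 10 or more none stood in the order 1, 2, 3 in both tissues. A further 27 defence and hormone unigenes were picked by keywords of their annotation from the 424, so few of them could be members. Of these 27, 0 were members. Only 5 of them reached the abundance required, and 1 of the 5 stood in the order, against 10.3% of the 13883 unigenes. Of the 27, 19 were tested, and edgeR called 0 of them without the replicate number as a block. With it, 3 were called higher in the culm, against 0.157% of all unigenes tested called in either direction. The study selected them for a tissue difference in the same libraries, so these calls are not independent evidence.

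Of the 424 unigenes of the annotated table, 52 reached the required abundance. Of these, 4 stood in the order 1, 2, 3 in both tissues, against 10.3% of the 13883 unigenes, and all 4 failed the limit on the pair ratio. One encodes a 12-oxophytodienoate reductase, a family of enzymes of which some act in the making of jasmonate. It had 32.9, 12.6 and 7.69 CPM in culm libraries 1 to 3 and 8.84, 8.54 and 3.03 CPM in sulcus libraries 1 to 3, with culm 1 alone standing above the other libraries. Another encodes B-box zinc finger protein 20, of a family known in Arabidopsis for roles in light signalling. It had 33.7, 15.6 and 8.37 CPM in culm libraries 1 to 3 and 11.4, 8.08 and 5.02 CPM in sulcus libraries 1 to 3.

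The order opposite to that of the members was found in 3 of the 14 pathway unigenes with a mean CPM of 10 or more, against 9.55% of the 13883 unigenes. So few unigenes allow no reading of this share. The clearest was F5H, ferulate 5-hydroxylase, which leads to the syringyl units of lignin, with 139, 379 and 1547 CPM in culm libraries 1 to 3 and 149, 428 and 1595 CPM in sulcus libraries 1 to 3. Its library 3 exceeded its library 1 by 11.1-fold in the culm and by 10.7-fold in the sulcus. F5H was thus lowest in the same libraries, culm 1 and sulcus 1, in which the members were highest, and no relation between them was tested.

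The 150 unigenes of the opposite order were chosen by the same rule with libraries 1 and 3 exchanged. They differed less between libraries in summed level, and their single ratios between libraries 1 and 3 were not compared. Their summed level in library 3 was 4.55 times that in library 1 in the culm and 4.42 times in the sulcus, against 16.7 and 14.7 for the members in their own direction. Their culm-to-sulcus ratio of summed levels was 0.942, 0.977 and 0.970 in pairs 1, 2 and 3. The culm was the higher tissue for 47, 65 and 64 of these 150 in the 3 pairs (31.3%, 43.3% and 42.7%), against 52.1%, 48.9% and 60.8% of the 13883 unigenes. Their median log2 ratio of culm over sulcus was −0.17, −0.038 and −0.049. These unigenes thus leaned towards the sulcus, with the largest median in pair 1, the pair in which the members leaned most towards the culm.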

How the data were processed

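The authors assembled paired-end reads de novo with Trinity, grouped contigs with Corset and deposited estimated counts per unigene, neither normalized nor filtered. The program that counted reads was not given in the sources used here, and the submitters' processing notes name DESeq. No genome, sequence or strand was used. In the deposited table the letter c marks sulcus and g culm columns.

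CPM used the column totals. Rounded counts were analysed in R 4.3.3 with edgeR 4.0.16 (TMM, factors between 0.949 and 1.05, filterByExpr with a minimum count of 10, no block, Benjamini-Hochberg adjustment), and with limma 3.58.1 and DESeq2 1.42.0 as alternatives. The study's methods do not say whether a block was used. The edgeR fits were tested on simulated data with tissue changes larger than the pair limit allows in the members. That simulation does not bear on changes as small as those of the members. The correlations of same-numbered libraries, 0.713, 0.620 and 0.798, show from the values, not from the labels, that the numbers pair the libraries. Members and lists were chosen with earlier results of these data known. Gene annotations came from the study's supplementary tables. Members were named by rule: the 2 highest scores, the 2 highest mean levels, and the largest and smallest blocked log2 fold change. One unigene left out by the rule is not reported here. Alternatives covered scaling, pseudocount, filters, tool, block and libraries left out.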

Additional observations from a re-analysis of the deposited data

How the results depend on the processing

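Of the 150 members, 143 were shared with TMM scaling, 144 with the mean of both ratios as score, 141 and 137 with pseudocounts of 0.1 and 2 CPM, 123 and 114 with a mean CPM of 5 and of 20, 111 without the pair limit and 85 with a limit of 1.5-fold. Members called were 2 with the replicate block in edgeR and 8 with it in DESeq2, 5 with the block without replicate 1, and 0 in the other settings and without any 1 library. Unigenes called over all 31936 were 50 with the block in edgeR, and 29 in DESeq2 without and 173 with the block. Without a filter they were 2 of 63486. With the block they were 337 of 32910 without replicate 1, 5 of 32647 without replicate 2 and 104 of 32322 without replicate 3. These alternatives were chosen after seeing the data. The block changed the calls of Cluster-4806.26613 and Cluster-4806.19671, and of no other named member. It also changed calls in the annotated lists, which hold no members. The members' median log2 fold change lay between 0.13 and 0.29 in the other fits of all libraries, between −1.84 and 2.18 with 1 library left out, and with the block between 0.045 and 0.20 with 1 pair left out. With 1 library left out, single members ranged between −3.66 and 3.51 (Cluster-4806.20544), −4.13 and 5.54 (Cluster-4806.14602), −1.81 and 3.58 (Cluster-4806.26613), −1.22 and 3.01 (Cluster-4806.19671), −2.88 and 3.29 (rank 10), −0.61 and 0.94 (rank 57), −3.18 and 5.27 (rank 17) and −3.02 and 1.94 (rank 52). Such fits set unlike libraries against each other. With the block and 1 pair left out, Cluster-4806.20544 ranged between −0.21 and 0.28, with a value of −0.053 without replicate 3, and rank 57 between −0.30 and 0.30, with 0.035. Rank 57, at −0.061 without a block, was 0.013 with it, 0.0096 with it in DESeq2 and 0.037 in limma voom. The causes were not tested. The counts of chosen unigenes in the same order in the other tissue moved only between 126 and 129 in the culm and between 137 and 138 in the sulcus. Counts under 10 limit the precision of some members in libraries 3.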
